A study of Mus musculus with 4 samples.

Results

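The miRNAs described here come from 4 imprinted loci of the mouse: Mest, Igf2, H19 and the Gnas locus. They are all listed names that, without their arm mark, read miR-335 (Mest), miR-483 (Igf2), miR-675 (H19), miR-296 or miR-298 (Gnas locus), which gave 9 mature names from 5 hairpins among the 590 names listed in any library. The files list them as mmu-miR-335-5p, mmu-miR-335-3p, mmu-miR-483, mmu-miR-483*, mmu-miR-675-5p, mmu-miR-675-3p, mmu-miR-296-5p, mmu-miR-296-3p and mmu-miR-298, and the species prefix is dropped below. Small RNA was sequenced from synovial fibroblasts, cells of the joint lining, taken from the hind joints of 8-week-old mice and grown to passage 4, of strain CBA/J * C57BL/6/J in both groups. The WT group (2 libraries) came from wild type littermates, and the TghuTNF group (2 libraries) from mice with a human TNF transgene, a model of arthritis. The series design calls the libraries of a genotype biological replicates. The labels give fibroblast selection by passaging and a small share of Mac1-positive cells, and they do not give the sex of the mice, the promoter of the transgene or the number of animals behind a culture. The members were chosen by name, with their total matches and mismatch classes in WT and TghuTNF already known from these libraries. Their WT and TghuTNF values are therefore a description, no p-value is given for a member, and no statement rests on their calls.

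Imprinted genes are expressed mainly from 1 parental allele, and many of them act on growth before and after birth. Mest and Igf2 are expressed from the paternal allele, H19 from the maternal allele, and the Gnas locus makes several transcripts of either origin. A miRNA inside such a gene can be cut from the same transcript as its host, by Drosha and then Dicer. Its seed, the bases 2 to 8 of the mature strand, guides it to target mRNAs. The counts do not separate the parental alleles, and host gene mRNA was not measured in these libraries.

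The mature strands are printed to show the seeds. The authors counted reads against their own set of miRNAs, whose release the labels and headers do not state, so those strands may differ from the ones printed. They are from RefSeq on GRCm38.p6, 5′ to 3′, with the seed in capitals. Of the 9 listed names, 6 matched a RefSeq name. The files give miR-483, miR-483* and miR-298 without a 5p or 3p mark, so both arms of those hairpins are shown and neither is assigned.
miR-335-5p: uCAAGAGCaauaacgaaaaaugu
miR-335-3p: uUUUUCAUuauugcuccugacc
miR-483-5p: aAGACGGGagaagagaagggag
miR-483-3p: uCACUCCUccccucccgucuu
miR-675-5p: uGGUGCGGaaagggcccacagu
miR-675-3p: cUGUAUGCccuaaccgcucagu
miR-296-5p: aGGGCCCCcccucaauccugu
miR-296-3p: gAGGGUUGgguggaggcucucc
miR-298-5p: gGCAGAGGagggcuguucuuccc
miR-298-3p: gAGGAACUagccuucucucagcuu

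These 10 mature strands have 10 different seeds, and none of them is the seed of another hairpin's mature strand among the 1738 in the table. They therefore do not form a seed family. GC content was 30.4% in miR-335-5p and 36.4% in miR-335-3p, the lowest values of the 10, and 68.2% in miR-296-3p, the highest. Compared without gaps over at least 18 bases, the closest mature strand of another hairpin differed from them at 5 (miR-483-3p, closest to miR-7058-3p) to 8 bases (miR-335-5p, closest to miR-9-3p). The hairpin of mir-335 is shown because both of its arms were sequenced at similar levels. The mature strands are in capitals:
Mir335: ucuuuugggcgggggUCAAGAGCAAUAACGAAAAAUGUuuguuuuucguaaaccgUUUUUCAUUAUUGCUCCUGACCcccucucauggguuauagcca

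In GRCm38, Mir335 lies on chromosome 6 at 30741299 to 30741396 on the plus strand, in an intron of all 7 GENCODE transcripts of Mest that span it. Mir483 lies on chromosome 7 at 142654924 to 142654996 on the minus strand, in an intron of all 7 spanning transcripts of Igf2 and in an intron of the overlapping gene Gm49394. Mir675, on the same strand at 142577064 to 142577147, lies in an exon of 3 of the 4 spanning transcripts of H19, and 77776 bases separate it from Mir483. Mir296 (174267047 to 174267125) and Mir298 (174267504 to 174267585) lie on the minus strand of chromosome 2, 378 bases apart. Both fall outside other annotated genes. The nearest gene is Nespas, the antisense transcript of the Gnas locus, which ends 14112 bases from Mir296 and 13652 bases from Mir298 on the same strand.

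Values are counts of matching reads, given as CPM (counts per 1000000 matches, scaled by TMM). The libraries held 16680860 to 27362819 matches. A library with 0 reads of a name can still hold up to 3, which is 0.110 to 0.180 CPM, and intervals below are exact 95% intervals that cover counting error only. TghuTNF replicate 2 stood apart in its reads: 11.67% of its matches had 2 mismatches, against 8.21% to 8.73% in the other libraries. The 8 fibroblast markers were all present, led by miR-21 with WT at 170381 ± 14260.0 CPM and TghuTNF at 185228 ± 7858 CPM (SD, n = 2). In the edgeR test over all miRNAs, 1 of the 8 was called higher in TghuTNF (12.5%, against 4.75% of all 442 tested). Of the rest, 1 was called lower (12.5%, against 8.6%) and 6 were not called. The higher one was miR-22, at 4003 and 4449 CPM in WT against 7061 and 10077 CPM in TghuTNF. The lower one was miR-214, at 256 and 156 CPM against 117 and 99.5 CPM.

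Both arms of mir-335 were far lower in the TghuTNF fibroblasts. miR-335 is the intronic miRNA of Mest, and has been studied as a suppressor of metastasis. miR-335-5p had 590 and 389 reads in WT replicates 1 and 2 and 50 and 16 reads in TghuTNF replicates 1 and 2. These are 35.9 and 14.3 CPM against 1.81 and 0.71 CPM. Both TghuTNF libraries lay below both WT libraries, and the lower WT value was 7.89 times the higher TghuTNF value. Within each genotype the 2 libraries also differed, by 2.51 times in WT and 2.55 times in TghuTNF.

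miR-335-3p had 319 and 601 reads in WT and 51 and 24 in TghuTNF, or 19.4 and 22.1 CPM against 1.85 and 1.07 CPM. The WT libraries were close to each other here, and the lower of them was 10.5 times the higher TghuTNF library. The counting interval of the 24 reads in TghuTNF replicate 2 was 15.4 to 35.7 reads, and that of the 16 reads of miR-335-5p was 9.15 to 26.0. miR-335-5p ranked 180 among the 532 names listed in WT replicate 1 and 413 among the 545 in TghuTNF replicate 2. In the edgeR fit over all 442 tested miRNAs the log2 fold change was -4.28 ± 0.53 (SE, n = 2 per genotype) for miR-335-5p, or 19.4-fold lower, and -3.82 ± 0.34 for miR-335-3p, or 14.1-fold lower. The fold of miR-335-5p moved with single libraries. It was 11.2-fold lower without WT replicate 1 and 36.5-fold lower without TghuTNF replicate 1, fits that leave 1 library in a genotype.

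**Figure D1:**
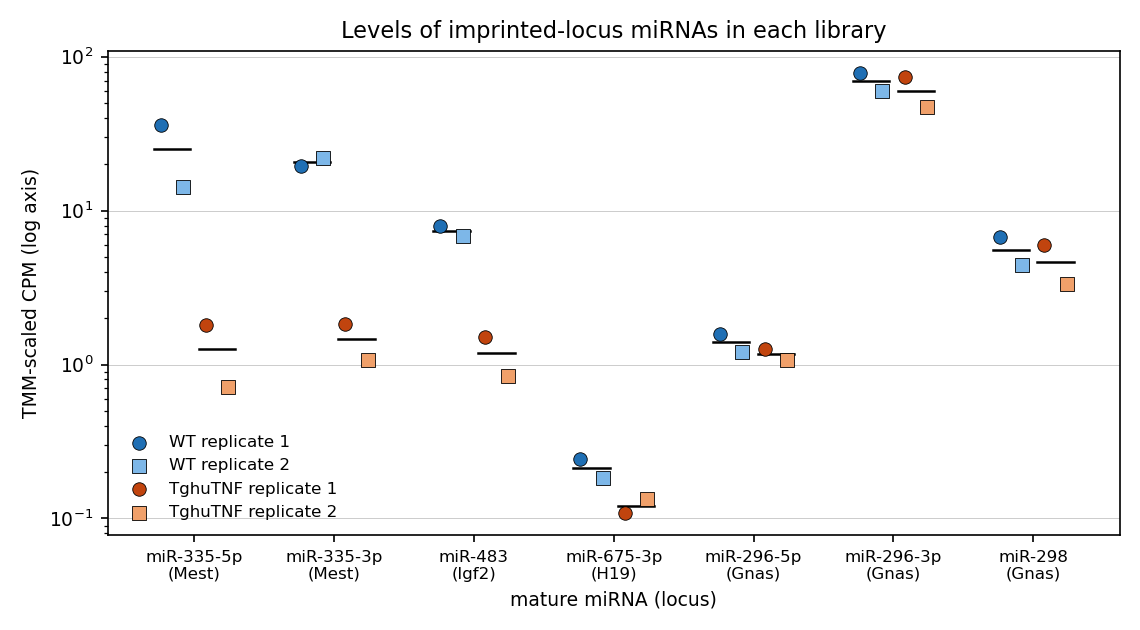
TMM-scaled CPM (log axis) of 7 imprinted-locus miRNAs in the 4 libraries, with points for libraries and bars for genotype means. The WT and TghuTNF points are far apart for miR-335-5p, miR-335-3p and miR-483 and are interleaved for the 3 miRNAs of the Gnas locus. miR-675-3p rests on 3 to 5 reads per library, and miR-483* and miR-675-5p, with 0 reads in 2 and 3 libraries, are not drawn.

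The share of the 5p arm differed more between the WT libraries than between the genotypes. It was 64.9% of the hairpin's matches in WT replicate 1 (95% interval 61.7% to 68.0%) and 39.3% in WT replicate 2 (36.2% to 42.4%). In TghuTNF it was 49.5% in replicate 1 (39.4% to 59.6%) and 40.0% in replicate 2 (24.9% to 56.7%). WT replicate 1 was thus the highest, and both TghuTNF values lay between the WT values. With perfect matches only, the 3p arm led in every library, and the 5p share was 44.1% and 23.9% in WT and 31.3% and 22.7% in TghuTNF.

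Among the 106 hairpins with both arms tested, mir-335 had the widest gap between the WT libraries in the log2 ratio of its arms, 1.51 against a median of 0.24. The next widest was mir-574 at 1.43. With perfect matches the gap of mir-335 was 1.32, rank 2 of 84 hairpins. This comparison was chosen after the values were seen, and it uses no genotype difference. The gap came with the 5p arm: miR-335-5p differed by 1.30 between the WT libraries on the log2 CPM scale, more than all but 3 of the 442 tested miRNAs, while miR-335-3p differed by 0.18, near the median of 0.19. The change of the arm ratio between genotypes was -0.43 ± 0.51 (log2, SE) and turned to 0.33 without WT replicate 1. Over all hairpins 0 of 106 (0%) passed limma's test of the arm ratio at an adjusted p of 0.05, and 6 had an unadjusted p under 0.05.

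**Figure D2:**
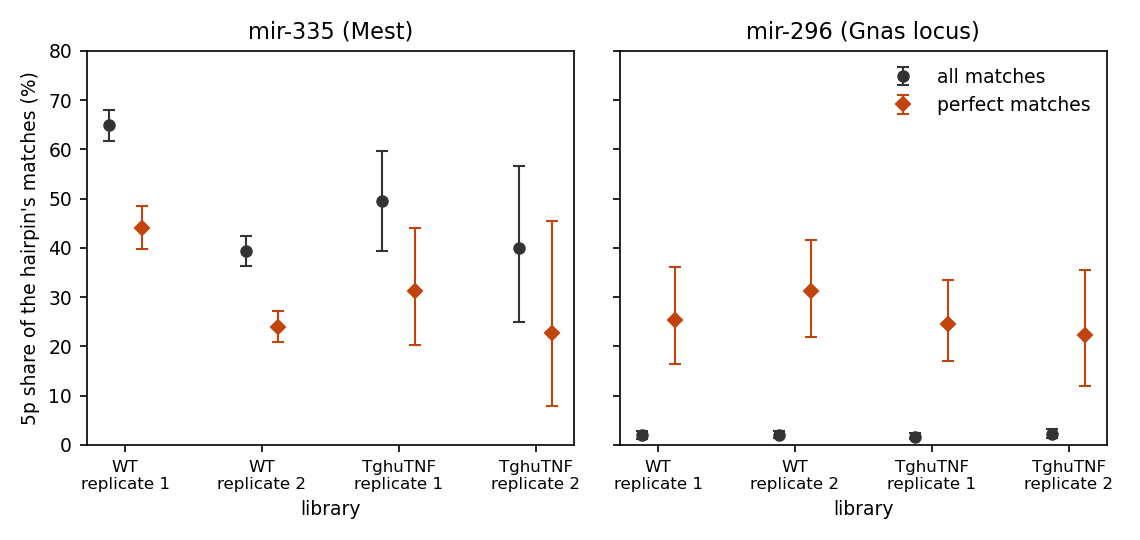
Share of the 5p arm in the matches of mir-335 (left) and mir-296 (right) in each library, in percent, with exact 95% intervals for counting error. The 5p share of mir-335 in WT replicate 1, 64.9%, lies above the other 3 libraries. For mir-296 it is 1.70% to 2.21% with all matches and 22.2% to 31.2% with perfect matches.

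miR-483, whose hairpin lies in an intron of the growth factor gene Igf2, was also lower in TghuTNF. It had 130 and 185 reads in WT and 42 and 19 in TghuTNF, or 7.91 and 6.80 CPM against 1.52 and 0.84 CPM. Both WT libraries lay above both TghuTNF libraries, and the lower WT value was 4.47 times the higher TghuTNF value. The log2 fold change was -2.61 ± 0.36 (SE, n = 2 per genotype), or 6.12-fold lower. The other arm, miR-483*, had 0 and 4 reads in WT and 1 and 0 reads in TghuTNF and did not pass the filter on low counts. miR-483 gave 97.9% of the hairpin's matches in WT replicate 2 (94.7% to 99.4%) and 97.7% in TghuTNF replicate 1 (87.7% to 99.9%), the libraries that held both strands.

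H19, the maternally expressed neighbour of Igf2, is a long non-coding RNA that carries miR-675, known to restrain placental growth. miR-675-3p had 4 and 5 reads in WT and 3 reads in each TghuTNF library, and miR-675-5p had 1 read, in TghuTNF replicate 2. All 15 matches of miR-675-3p and the 1 of miR-675-5p carried 1 mismatch, and 0 were perfect. Neither arm passed the filter. The values lie at or near the limit that a count of 0 allows, so a genotype difference of miR-675 was not detectable at this depth. The names of these neighbouring imprinted genes thus differed in level in WT, with miR-483 at 7.35 ± 0.79 CPM (SD, n = 2) and miR-675-3p at 0.24 and 0.18 CPM. The counting intervals of miR-675-3p were 1.09 to 10.2 and 1.62 to 11.7 reads. With 0 perfect matches, the origin of its reads was not tested.

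The 3 tested miRNAs of the Gnas locus overlapped between the genotypes. miR-296-3p had 1292 and 1635 reads in WT and 2027 and 1061 in TghuTNF, or 78.6 and 60.1 CPM against 73.4 and 47.1 CPM. The genotypes overlapped, and the log2 fold change was -0.20 ± 0.27 (SE, n = 2 per genotype). miR-296-5p, which has been studied in blood vessel growth, had 26, 33, 35 and 24 reads in the same order of libraries, or 1.58 and 1.21 CPM against 1.27 and 1.07 CPM. Its log2 fold change was -0.24 ± 0.40, again with overlap.

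miR-298 had 111 and 120 reads in WT and 165 and 75 in TghuTNF, or 6.76 and 4.41 CPM against 5.98 and 3.33 CPM, with a log2 fold change of -0.25 ± 0.36. The genotypes overlapped here too. All 3 miRNAs had their highest level in WT replicate 1, followed by TghuTNF replicate 1, WT replicate 2 and TghuTNF replicate 2, an order found for 21 of the 442 tested miRNAs (4.75%). The sign was not stable: miR-296-3p stood at 0.0052 without WT replicate 1 and at 0.06 without TghuTNF replicate 2, and miR-298 at 0.08 and 0.09. Without TghuTNF replicate 1, miR-296-3p stood at -0.63, in a fit that leaves 1 TghuTNF library.

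The mismatch classes, which count how many of a read's bases differ from the strand the authors matched it to, set the members apart from each other. Over the 399 names with at least 100 matches, the median share of perfect matches was 63.8% and that of matches with 2 mismatches was 6.33%. miR-335-3p was the cleanest member, with 89.8% perfect matches over all libraries. miR-296-5p had 76.3%, miR-483 44.9%, miR-335-5p 40.2% and miR-298 19.5%. miR-296-3p had 4.22%, and 84.4% of its matches carried 2 mismatches, a share exceeded by 10 of the 399 names. This share was 83.9% to 86.1% in each library. Most of its level therefore rests on reads with 2 mismatches to the authors' strand, and their origin was not tested. Its perfect matches were 62 and 64 reads in WT and 86 and 42 in TghuTNF, or 3.77 and 2.35 CPM against 3.12 and 1.86 CPM. The genotypes overlapped in this class as well.

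In miR-298 the classes differed in how they lay between the genotypes. Perfect matches were 33 and 25 reads in WT and 21 and 13 in TghuTNF, or 2.01 and 0.92 CPM against 0.76 and 0.58 CPM, with no overlap. On the same scale the genotypes did not overlap in perfect matches for 231 of the 380 miRNAs tested in this class (60.8%), and 126 of them (33.2%) were lower in TghuTNF, so nothing is read from this for miR-298. miR-296-5p did not overlap in perfect matches either, at 1.28 and 1.07 CPM in WT against 1.01 and 0.53 CPM in TghuTNF. Matches of miR-298 with 2 mismatches were 62 and 80 reads against 128 and 49, and overlapped. The perfect share was 29.7% (21.4% to 39.1%) and 20.8% (14.0% to 29.2%) in WT and 12.7% (8.05% to 18.8%) and 17.3% (9.57% to 27.8%) in TghuTNF. In the fit with perfect matches only, miR-298 had a log2 fold change of -1.06 ± 0.47 and did not pass the threshold. This is 2.09-fold lower, against 1.19-fold with all matches.

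For the Mest and Igf2 miRNAs the log2 fold change with perfect matches only was -4.32 ± 0.55 for miR-335-5p, -3.97 ± 0.39 for miR-335-3p and -2.81 ± 0.43 for miR-483. The other classes were not fitted on their own. Matches of miR-335-3p with 1 mismatch stood at 1.95 and 1.36 CPM in WT and 0.22 CPM in each TghuTNF library. This is a smaller ratio than in its perfect matches, which stood at 17.0 and 20.3 against 1.59 and 0.75 CPM. The 1-mismatch values rest on 32 and 37 reads in WT and only 6 and 5 in TghuTNF, so nothing is read from the smaller ratio. Matches of miR-483 beyond 1 mismatch were only 1 and 4 reads in WT and 2 in each TghuTNF library. They overlapped between the genotypes, at 0.061 and 0.15 CPM against 0.072 and 0.089 CPM. These values lie at or near the limit that a count of 0 allows, so a genotype difference in this class was not detectable. Perfect matches of miR-335-3p were 280 and 553 reads in WT and 44 and 17 in TghuTNF. Those of miR-335-5p were 221 and 174 against 20 and 5, and those of miR-483 were 55 and 90 against 18 and 6. In miR-483, matches with 1 mismatch made up 56.9% and 49.2% in WT and 52.4% and 57.9% in TghuTNF. The perfect share of miR-335-3p was lowest in TghuTNF replicate 2, at 70.8% (48.9% to 87.4%), against 86.3% to 92.0% elsewhere. Perfect matches of miR-296-5p were 21 of 26 and 29 of 33 in WT replicates 1 and 2 and 28 of 35 in TghuTNF replicate 1. They were 12 of 24 in TghuTNF replicate 2. That library also had the most 2-mismatch matches over all miRNAs, and the part of this in the members' values was not tested.

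**Figure D3:**
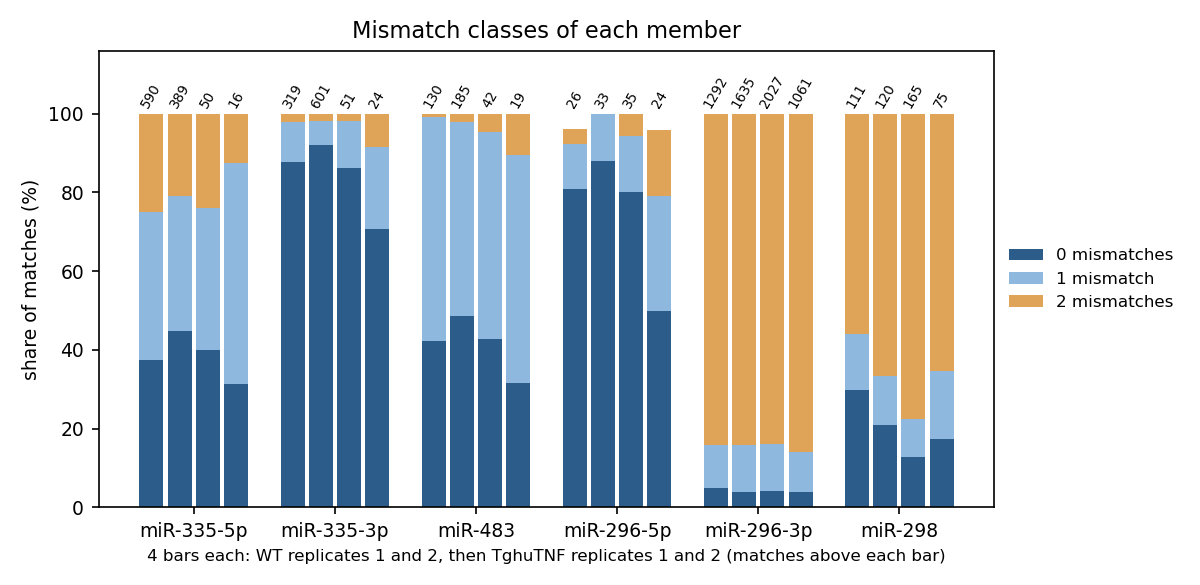
Share of each member's matches with 0, 1 and 2 mismatches, in percent, with 1 bar per library and its number of matches above it. miR-335-3p is mostly perfect in every library. miR-296-5p is mostly perfect except in TghuTNF replicate 2, where 12 of its 24 matches are perfect. For miR-296-3p, 83.9% to 86.1% of the matches have 2 mismatches. Bars of miR-296-5p that end below 100 hold a match in no class.

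Of the 9 listed names, 6 passed the filter on low counts. Over all 442 tested miRNAs, 13.3% were past an adjusted p of 0.05 in edgeR's quasi-likelihood test, 8.6% lower and 4.75% higher in TghuTNF. Of the 6 tested members 3 were past it, all lower: miR-335-5p, miR-335-3p and miR-483. The genotypes did not overlap for these 3, against 60.6% of all tested miRNAs in either direction and 29.9% in the direction of lower in TghuTNF. The median log2 fold change of the 6, which include both arms of 2 hairpins, was -1.43, against 0.0056 over all 442. Nothing is read from these counts, since the members were chosen with this contrast in view. By size, miR-335-5p and miR-335-3p ranked 3 and 4 among the 442 in the direction of lower values, and miR-483 ranked 6. With 2 libraries against 2, an exact permutation test of a single miRNA cannot give a p below 0.333.

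**Figure D4:**
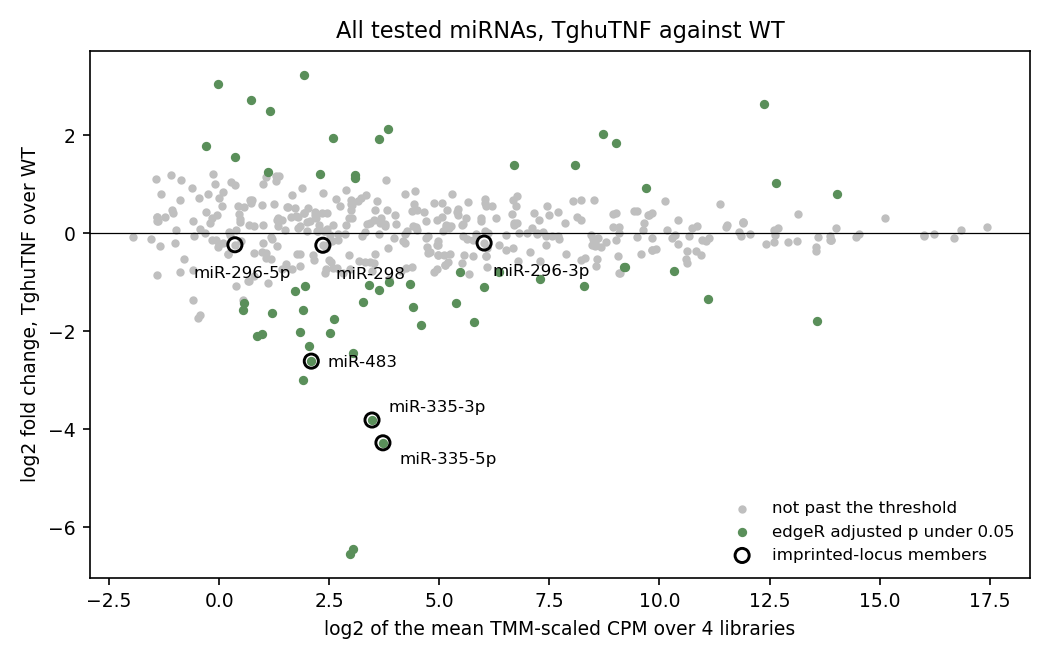
Log2 fold change of TghuTNF over WT (y) against the log2 of the mean CPM (x) for the 442 tested miRNAs, green where the edgeR adjusted p is under 0.05, with the 6 members circled. miR-335-5p (-4.28), miR-335-3p (-3.82) and miR-483 (-2.61) lie below most others, and the Gnas miRNAs lie between -0.25 and -0.20.

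The miRNAs whose profile over the 4 libraries was most like that of a member were found by a distance. It was taken between log2 CPM values with 0.5 added to each CPM, each relative to its own mean. With 4 libraries this is a description. For mir-335 they were miR-135a (distance 1.13), miR-135b (1.18) and miR-322* (1.32), against a median of 3.70 over all others. In TghuTNF, miR-135a (0.14 and 0.18 CPM) and miR-135b (0.14 and 0.22 CPM) lay below the added 0.5. Their distances therefore depend on this constant, and their place as the closest profiles is uncertain. The perfect matches of miR-135b were 273, 358, 1 and 3 reads and the matches of miR-135a with 1 mismatch 273, 358, 1 and 4, in the order WT replicates 1 and 2 and TghuTNF replicates 1 and 2. The files do not say whether these are the same reads, so the levels of miR-135a and miR-135b are uncertain. For mir-483 they were miR-503 (0.36), miR-204 (0.41) and miR-322 (0.42). Their levels were 6.45, 7.27, 1.74 and 1.02 CPM for miR-503 and 90.6, 82.1, 29.3 and 19.4 CPM for miR-322, in the order WT replicates 1 and 2 and TghuTNF replicates 1 and 2. For mir-296 they were miR-151-5p (0.11), let-7e (0.12) and miR-18a* (0.13), and for mir-298 miR-20a* (0.20), let-7e (0.22) and miR-671-3p (0.26).

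Other imprinted loci that carry miRNAs are given by their counts beside those over all tested miRNAs. Of 61 tested miRNAs of the Dlk1-Dio3 region, 2 were called higher (3.28%, against 4.75% of all 442) and 0 lower. Their median log2 fold change was 0.56. The most abundant of them, miR-379, stood at 0.59 ± 0.20 (SE) and was not called. Of 39 tested miRNAs of the families in Sfmbt2 introns, 0 were called higher and 9 lower (23.1%, against 8.6% of all 442, with a median of -0.67, led by miR-669c at -0.69 ± 0.18). Some of these names had nearly the same levels. miR-669c stood at 682 and 796 CPM in WT and 480 and 437 in TghuTNF, and miR-669n at 670 and 771 against 468 and 427. Whether such names share reads is not stated, so the 39 may not be independent and the 23.1% is uncertain. In size the log2 fold changes of mir-335 and mir-483 exceeded both medians, and those of the Gnas miRNAs were smaller than both. These differences between loci were not tested.

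Markers of other cell types gave the following levels beside the lower miR-335 and miR-483. Over all 442 tested miRNAs, 4.75% were called higher and 8.6% lower. With so few names in each list, nothing is read from their calls. The summed level of the 4 muscle miRNAs was 2426 and 3008 CPM in WT and 2054 and 1783 in TghuTNF, led by miR-206, and 0 of 4 were called. That of the 2 endothelial miRNAs was 127 and 108 CPM against 68.8 and 66.7, with 1 of 2 called lower, miR-126-3p leading. The 7 epithelial miRNAs summed to 67.7 and 70.9 CPM against 36.8 and 30.7. This sum was mostly miR-203, called lower, at 59.0 and 62.4 CPM against 25.2 and 19.8. Of the other 3 tested, 0 were called, and the median log2 fold change of the 4 tested was 0.37. miR-200a and miR-429 were at 0 in 1 WT library each. The 5 blood cell miRNAs summed higher in TghuTNF, at 16.1 and 6.39 CPM in WT against 28.8 and 21.6. Of 3 tested, 1 was called higher, miR-223, at 0.61 and 0.29 CPM in WT against 3.26 and 2.40 CPM in TghuTNF. The most abundant, miR-142-3p, was not called. The 4 neural miRNAs, led by miR-128, summed to 63.9 and 69.0 against 66.3 and 78.3 CPM, with 0 of 2 tested called and miR-124 at 0 in both WT libraries. Of the 4 chondrocyte miRNAs, led by miR-140*, 2 were called higher and 2 lower. The part of these cell types in the members' values was not tested, and in these bulk cultures fewer cells that express a miRNA and less of it per cell cannot be told apart.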

How the data were processed

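Per the file headers, the authors ran mimap version 3d against 707 mature mouse miRNAs, with reads of 37 bases, hash length 9 and up to 2 mismatches. Each deposited value is a raw count of reads that match a miRNA, with no normalisation, and the authors split it into 0, 1 and 2 mismatches. Trimming, the miRBase release and how reads matching several miRNAs were treated are not stated in the labels or headers. Libraries held 16680860 to 27362819 matches, and a count of 0 allows 3 counts.

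Counts were filtered with filterByExpr (442 miRNAs kept), scaled with TMM and tested in edgeR 4.0.16 (R 4.3.3; glmQLFit and glmQLFTest) over the 4 libraries, with a term for genotype, two-sided, Benjamini-Hochberg adjustment over all 442, threshold 0.05. SE is the log2 fold change divided by the square root of F. Arm ratios (log2, pseudocount 0.5) used limma 3.58.1. The log2 CPM values behind profile distances and gaps between replicates also had 0.5 added. The fits were checked on simulated counts. The members, lists and tests were chosen with earlier results of these data known. Named beside the members are, by rule, the 3 closest profiles per hairpin and the most abundant miRNA of each list. Other names were chosen after their values were seen. Alternatives were DESeq2 1.42.0, limma-voom, other scalings, filters and mismatch classes, a replicate block and leaving out each library. Sequences are from RefSeq and gene models from GENCODE, on GRCm38. The files' own build is not given in the sources used here. Replicate numbers do not pair libraries by any label.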

Additional observations from a re-analysis of the deposited data

How the results depend on the processing

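miR-335-5p, miR-335-3p and miR-483 were lower in TghuTNF and past the threshold under every alternative that tested them (miR-483 is removed by a mean of at least 10 CPM). They were chosen with this contrast known, so this is a description and nothing is read from it. The count of members called lower was 3 in the main fit. Without TghuTNF replicate 1, miR-296-3p stood at -0.63, in a fit that leaves 1 TghuTNF library. Over all miRNAs 59 were called, 21 higher and 38 lower. Without the filter these were 93 and 39 higher, and with a mean of at least 10 CPM 20, 9 and 11. With the replicate number as a block 87 were called, 34 higher and 53 lower. The number is only a label (correlation of same-numbered deviations -0.088), and the block changed no member's call. Leaving out 1 library gave 49 to 153 calls, 17 to 61 higher and 29 to 92 lower, the most without TghuTNF replicate 1. Upper quartile scaling moved the median log2 fold change of all miRNAs to -0.10. The sign turned when 1 library was left out for miR-296-3p (-0.63 to 0.060), miR-298 (-0.81 to 0.086) and the arm ratios of mir-335 (-1.19 to 0.33) and mir-296 (-0.23 to 0.17). The cause was not tested. Arm ratio calls were 0 in every setting but the one without the filter, which called 1 (mir-292). Fits without a library assume that the lone library varies like the other genotype's. Counts of 16 to 51 reads in TghuTNF limit the precision of mir-335.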
